A study of Homo sapiens with 29 samples.

Results

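The enzymes of purine synthesis were followed through cells given siRNA against hnRNPA1 and through RNA recovered with hnRNPA1. They are 10 genes taken by name, of 16382 genes in the expression table: PPAT, GART, PFAS, PAICS, ADSL, ATIC, IMPDH1, IMPDH2, GMPS and ADSS2. The group was chosen by knockdown values in part: ATIC was known to be among the largest rises that held under other settings. The knockdown values of these enzymes are therefore given as a description, without a test.

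The protein hnRNPA1 binds RNA, acts in splicing and shuttles between nucleus and cytoplasm. All 29 libraries come from HEK293, a line of human embryonic kidney origin, grown in DMEM with serum. In 8 of them total RNA was sequenced, 4 after control siRNA and 4 after siRNA against hnRNPA1 with no other treatment named, and in 21 RNA was recovered with antibody to hnRNPA1 or with normal IgG (RNA immunoprecipitation, RIP) out of mitochondria, cytosol or the whole cell. The labels name no other siRNA and no rescue, so loss of hnRNPA1 and off-target effects of the siRNA cannot be told apart. Nothing says that libraries of a group came from separate cultures, so the spread between them may be technical.

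Cells build purines stepwise on a ribose phosphate until the ring closes as inosine monophosphate (IMP), the branch point from which AMP and GMP are made. PPAT commits the ribose donor PRPP to the pathway, GART, PFAS, PAICS and ADSL build the ring, and ATIC adds the last formyl carbon from folate and closes the ring to IMP. IMPDH1 or IMPDH2 and then GMPS lead to GMP, while ADSS2 and again ADSL lead to AMP. In human cells these enzymes can gather near mitochondria in assemblies called purinosomes, and growing cell lines rely on the pathway for nucleotides.

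The bases before the start of ATIC are shown because its RIP window, described further on, reaches across the start, and those between PPAT and PAICS because these neighbours run apart from a shared stretch that windows of both reach. The sequences are from RefSeq, build GRCh38.p14, whose promoter table held entries for 8 of the 10 enzymes and none for ADSL and IMPDH2. Capitals in the ATIC line mark CACGTG, the E-box that MYC and related factors can bind. Capitals in the other line mark TAGGG on either strand, which as UAGGG is the core of the RNA word that hnRNPA1 prefers. The stretch lies before both starts, so RNA begun at either of them does not hold it, and the marks show no site in such RNA. RefSeq gives PAICS a further start within the span of PPAT, and unspliced RNA begun there would run across the stretch.
ATIC, 250 bases before the start, chr2:215311809-215312058, plus strand: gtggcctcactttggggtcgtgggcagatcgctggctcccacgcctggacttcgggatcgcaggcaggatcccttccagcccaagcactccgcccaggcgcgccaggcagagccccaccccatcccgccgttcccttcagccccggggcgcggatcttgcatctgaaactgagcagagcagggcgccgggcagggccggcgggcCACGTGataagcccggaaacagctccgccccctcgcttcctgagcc
PPAT and PAICS, 136 bases between both starts, chr4:56435616-56435751, plus strand: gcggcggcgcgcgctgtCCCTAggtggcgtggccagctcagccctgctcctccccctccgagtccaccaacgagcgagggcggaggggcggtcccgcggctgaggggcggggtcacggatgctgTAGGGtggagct

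CACGTG lies 46 bases before the ATIC start, and a second copy begins at base 30 after the start, beyond the stretch printed. Beside PPAT, CACGTG begins at base 41 after the PAICS start, past the stretch printed, and this 1 copy falls in the entries of both genes. Over promoters from 250 bases before to 50 after the start, 3 of 8 enzymes held CACGTG (ATIC, PPAT and PAICS), against 8.77% of 27305 genes with an entry. GGGCGG, the GC box, was found on either strand in all 8, against 48.3% of genes, and TAGGG in 4 of 8, against 37.3%. A match in these windows describes the sequence and does not show that a factor binds there. Most of these bases lie before the start and both strands were searched, so a TAGGG match need not lie in RNA.

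The targeted gene checks the labels; values per library are given here in the order of libraries 1 to 4 of each group. HNRNPA1 stood at 18637, 20403, 18614 and 19348 normalised reads with control siRNA and at 6506, 6413, 7185 and 5306 with siRNA against hnRNPA1, which is 33.0% of the control mean. Of 15267 genes tested, 252 (1.65%) were called (limma, adjusted p under 0.05), with 103 higher and 149 lower in the knockdown. That count moves with single libraries. It was 73, 138, 156 and 61 without control libraries 1, 2, 3 and 4, and 74 and 69 without knockdown libraries 2 and 3. With libraries scaled to equal totals outside the mitochondrial chromosome it was 90, of which 24 were higher and 66 lower. Reads of the mitochondrial chromosome made up 18.63% and 18.02% in knockdown libraries 3 and 4 and between 21.94% and 23.72% in the other 6. The 7 HEK293 markers summed to between 14041 and 15528 normalised reads per library in both groups, a sum that does not show what each gene adds. Of the other markers, 3 of 5 fibroblast, 1 of 5 lymphocyte and 1 of 4 endothelial genes were in the table and summed to no more than 122.8.

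All 10 enzymes were in the table, passed the filter on low values and lay above the median expression. ATIC, the enzyme of the closing steps, stood at 384.8, 358.4, 454.7 and 434.1 normalised reads with control siRNA and at 800.9, 801.4, 652.0 and 598.1 with siRNA against hnRNPA1. Every knockdown library lay above every control library, and knockdown libraries 1 and 2 lay above 3 and 4. The mean went from 408.0 ± 44.2 to 713.1 ± 104 (SD, n = 4 each), a ratio of 1.75 and a log2 fold change of 0.80 with an SE of 0.11. Among the 69 genes above the median expression that were called higher, it ranked 2 by the size of the rise, a rank that restates how the group was chosen. In bulk samples, more cells with the RNA and more RNA per cell cannot be told apart. Under the alternative settings its log2 fold change lay between 0.74 and 0.98; a stable rise was part of how the group was chosen, so this range describes the choice and supports nothing further. It rests on about 323 to 813 estimated reads per library, for which counting alone gives an SD of 3.51% to 5.57%, while the libraries varied by 10.8% within the control and 14.6% within the knockdown group.

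**Figure D1:**
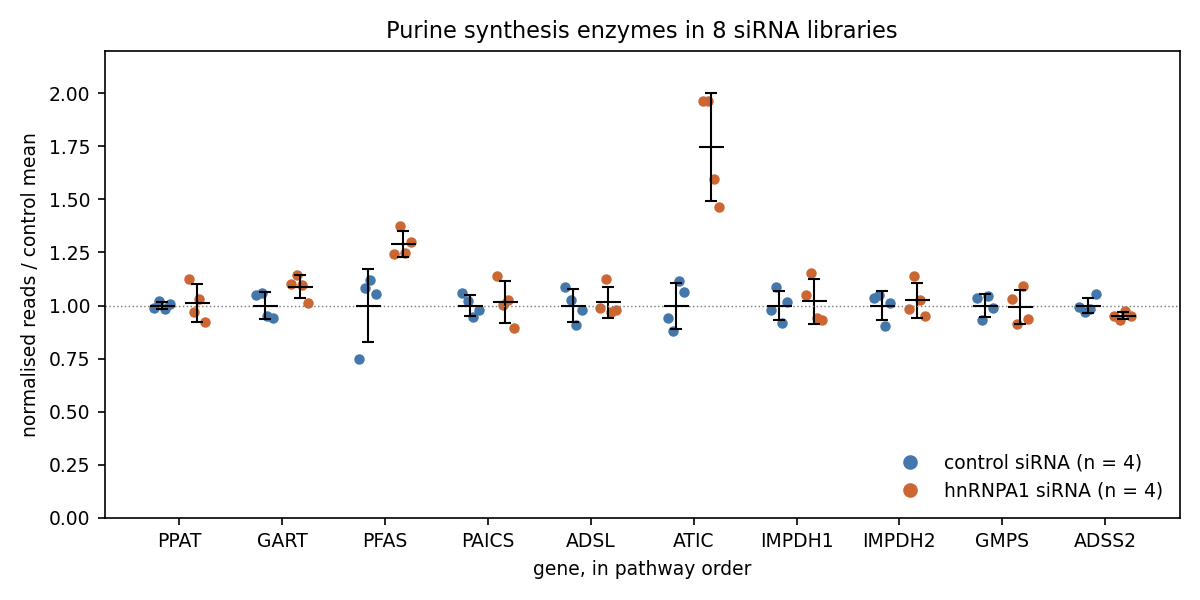
Normalised reads of each enzyme divided by its control mean (vertical axis, linear from 0) for the 10 genes in pathway order, with control siRNA libraries in blue and hnRNPA1 siRNA libraries in orange; bars are the mean ± SD of 4 libraries. The ATIC knockdown points lie well above its control points, those of PFAS lie above its controls with control library 1 low, and in the other 8 genes the points of both groups overlap.

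PFAS, which adds the glutamine nitrogen in the middle of ring building, was the enzyme with the next largest difference. Its values were 901.4, 1306.2, 1351.0 and 1271.6 normalised reads with control siRNA and 1498.2, 1660.9, 1505.0 and 1567.1 with siRNA against hnRNPA1. The groups did not overlap, and control library 1 was the lowest by far. The log2 fold change was 0.38 with an SE of 0.11, a ratio of means of 1.29, and 0.25 without control library 1. PFAS was not among the genes called; it was called in 1 of 16 alternative settings, with the replicate number as a block, where 7.8% of all genes were. Knockdown libraries all lay above control libraries in 2 of the 10 enzymes, ATIC and PFAS, against 5.69% of the genes tested, and all below in none, against 5.95%. These shares are given for scale only, since knockdown values chose the group.

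GART, which catalyses several of the early reactions, stood at 3668.6, 3705.5, 3329.2 and 3294.1 normalised reads with control siRNA and at 3859.9, 3997.1, 3837.3 and 3539.8 with siRNA against hnRNPA1. All but 1 of its knockdown values exceeded the highest control value, and the log2 fold change was 0.12 with an SE of 0.07. PPAT, the committing enzyme, went from 1341 ± 22.1 to 1357 ± 117 and PAICS, which carries the carboxylase and synthetase activities before ADSL, from 5393 ± 268 to 5476 ± 534 (SD, n = 4 each). Both groups overlap in each gene, and knockdown library 1 was the highest and library 4 the lowest of all 8 for both. ADSL, which acts before ATIC and again on the way to AMP, had a log2 fold change of 0.02 with an SE of 0.08, and only knockdown library 2, at 2287, stood above its highest control library, at 2213.

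The branch enzymes moved little. IMPDH1 and IMPDH2, the pair of isozymes that take IMP toward GMP, had log2 fold changes of 0.02 (SE 0.09) and 0.03 (SE 0.08), and GMPS, the GMP synthetase, of -0.01 (SE 0.08). IMPDH2 ranged from 1828 to 2133 in control and from 1932 to 2312 in knockdown libraries, IMPDH1 from 564.4 to 665.8 and from 571.0 to 707.7, and GMPS from 2134 to 2397 and from 2092 to 2498. ADSS2, the first enzyme toward AMP, went from 2231 ± 81.5 to 2124 ± 36.4 normalised reads (SD, n = 4 each), a log2 fold change of -0.07 (SE 0.06), and 1 knockdown library, at 2169, overlapped the lowest control library, at 2166. In all, 8 of the 10 log2 fold changes were above 0, beside 50.8% of all genes tested, and 2 below, with a median of 0.02 beside a median of 0.00 over all genes tested. Of the 10, 1 (ATIC) was among the genes called, beside 1.65% of all genes, and nothing is read from that count because knockdown values chose the group. Outside ATIC, PFAS and GART the other 7 lay between -0.07 and 0.03, with SEs of 0.06 to 0.09.

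Some of these genes overlap others by RefSeq, and the sources used here do not say whether reads were assigned by strand, so reads of overlapping genes cannot be told apart with certainty. ATIC and FN1, the fibronectin gene on the opposite strand, share 7728 bases. FN1 stood at 2573, 3497, 3335 and 2771 normalised reads in control and at 3566, 3807, 3565 and 3395 in knockdown libraries 1 to 4 (limma log2 fold change 0.25 with SE 0.10, adjusted p = 0.18). PFAS shares 449 bases with CTC1, a subunit of the telomere-capping CST complex, which rose from 180.2 ± 17.7 to 255.6 ± 17.8 (SD, n = 4; limma log2 fold change 0.50 with SE 0.10, adjusted p = 0.033). CTC1 kept its call in 6 of 16 alternative settings and was higher in 4 of 4 knockdown libraries. PPAT and PAICS share 25109 bases, because 1 RefSeq start of PAICS lies within the span of PPAT on the other strand. ADSL shares 16934 bases with SGSM3 (limma log2 fold change 0.02 with SE 0.11, adjusted p = 0.94). ADSS2 shares 819 with CATSPERE, whose values were too low to be tested. The part of these overlaps in the values of the enzymes was not tested. FN1, CTC1, SGSM3 and CATSPERE were named for their position, outside the rule for named genes.

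The genes nearest to ATIC in pattern were sought among the 7632 other genes above the median expression, by the root mean square difference of log2(value + 1) over the 8 libraries after centring each gene on its mean. Among the nearest were RPS16, a protein of the small ribosomal subunit (0.129), EIF3CL, a near-identical copy of the initiation factor gene EIF3C (0.151), TIMELESS, which acts at replication forks (0.166), and PRPF8, a core splicing factor (0.178), beside a median difference of 0.445. RPS16, like ATIC, stood higher in knockdown libraries 1 and 2 than in 3 and 4, whereas EIF3CL lay between 0.34 and 0.39 above its mean in all 4. PFAS came in place 109 by this measure (0.291). Since ATIC was chosen for its rise, the list describes which genes look like it and carries no test.

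**Figure D2:**
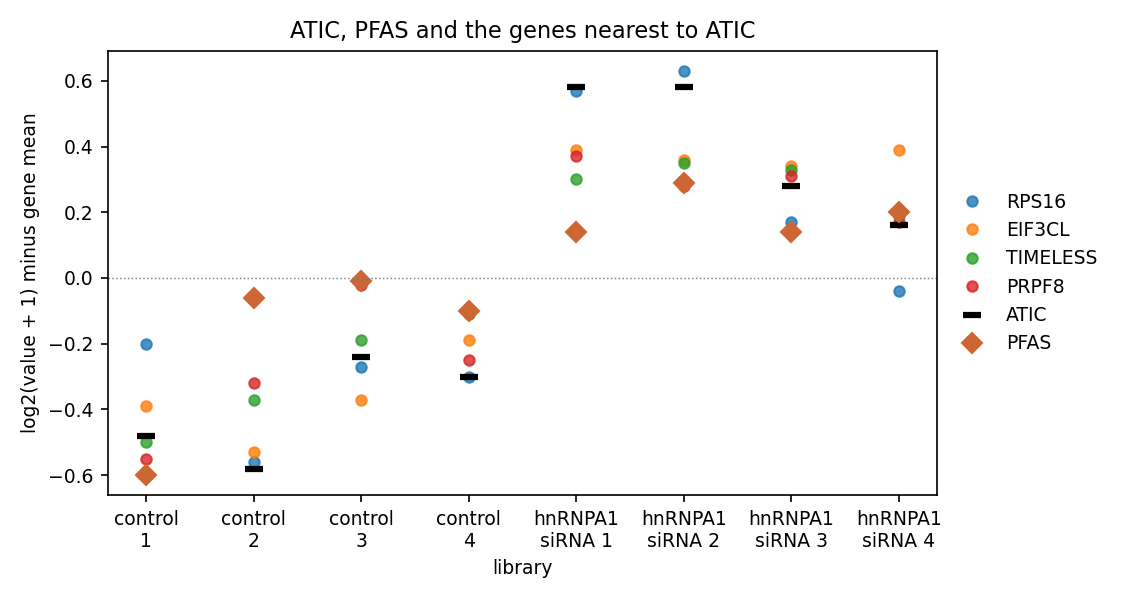
Log2(value + 1) minus the mean of each gene (vertical axis) in the 4 control and 4 hnRNPA1 siRNA libraries (horizontal axis) for ATIC (black bars), PFAS (orange diamonds) and 4 of the genes nearest to ATIC (dots). ATIC runs from -0.58 in control library 2 to 0.58 in knockdown libraries 1 and 2, and PFAS stands lowest in control library 1, at -0.60.

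The next question was whether the genes that feed purine synthesis, or run beside it, differed too. Of 70 genes in 6 lists, 66 were tested, and 1 was called higher and 0 lower, 1.52% against 1.65% of all genes tested. In the list of folate one-carbon and glycine supply, which provides the formyl groups used by GART and ATIC, 13 of 17 genes lay above 0 on the log2 fold change scale (median 0.22) beside a median of 0.00 over all genes tested, and PHGDH was called. PHGDH, which starts serine synthesis, stood at 2427, 2183, 2540 and 2644 normalised reads in control and at 2746, 4224, 4266 and 4711 in knockdown libraries 1 to 4, so all 4 exceeded the controls and library 1 did so narrowly (limma log2 fold change 0.68 with SE 0.14, adjusted p = 0.029). MTHFD1, the cytosolic enzyme that makes formyl-tetrahydrofolate, stood at 1552 ± 92.7 and 1911 ± 140 (SD, n = 4 each; log2 fold change 0.30, limma adjusted p = 0.064), higher in 4 of 4 knockdown libraries.

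Of the 7 genes of glutamine and aspartate supply, 5 lay above 0 in log2 fold change (median 0.28), 4 had an unadjusted p under 0.05 by limma (19.2% of all genes tested did), and 0 were called. SLC1A5, a glutamine transporter, stood at 2394, 2419, 3030 and 2798 normalised reads in control and at 2991, 3900.5, 3433 and 4189 in knockdown libraries 1 to 4 (log2 fold change 0.44, limma adjusted p = 0.058). ASNS, which makes asparagine from aspartate and glutamine, stood at 4254, 1894, 3553 and 3140 in control and at 3310, 5103, 5167 and 6108 in knockdown libraries (log2 fold change 0.64, limma adjusted p = 0.14). In both genes 3 of 4 knockdown libraries exceeded every control, and knockdown library 1 did not. PHGDH kept its call in 7 of the 16 alternative settings. The count of called genes over the 6 lists was 0 without control library 1, 2 or 4 and without knockdown library 2 or 3, 2 without control library 3 or knockdown library 4, and 5 without knockdown library 1.

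None of the 13 genes of pyrimidine synthesis and deoxynucleotides was called by limma, and 7 had an unadjusted p under 0.05, beside 19.2% of all genes tested. CAD, the enzyme that opens pyrimidine synthesis, stood at 668.2, 665.9, 1016.3 and 860.6 normalised reads in control and at 1018.6, 1057.7, 1211.3 and 1152.9 in knockdown libraries 1 to 4 (log2 fold change 0.49, limma adjusted p = 0.064). The groups did not overlap, by a margin of about 2 reads, with control library 3 the highest of its group. CMPK1, a nucleotide monophosphate kinase, stood at 1917 ± 61.0 and 1561 ± 185 (SD, n = 4 each; log2 fold change -0.30, limma adjusted p = 0.082), lower in 4 of 4 knockdown libraries.

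Without a replicate block, salvage and PRPP supply held no called gene either. Of 19 tested genes of purine salvage, interconversion and breakdown, 8 lay above 0 in log2 fold change (median -0.07), and 5 had an unadjusted p under 0.05 by limma, beside 19.2% of all genes tested. NT5C2, a nucleotidase that acts on IMP and GMP, stood at 852.1 ± 48.5 and 717.9 ± 27.1 normalised reads (SD, n = 4 each; log2 fold change -0.25, limma adjusted p = 0.099), and APRT, which salvages adenine, at 1625 ± 164 and 1984 ± 223 (log2 fold change 0.29, limma adjusted p = 0.12). Among the 4 genes of PRPP supply, 0 of which had an unadjusted p under 0.05, PRPS2, a PRPP synthetase, stood at -0.14 (limma adjusted p = 0.27) and PRPSAP1 at -0.03 (0.89). Of the 6 genes in the list of regulators, 0 had an unadjusted p under 0.05 by limma. MYCN stood at 21.1 ± 5.03 and 14.5 ± 3.69 normalised reads (limma adjusted p = 0.30) and E2F1 at 562.7 ± 37.0 and 638.5 ± 80.5 (0.34).

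**Figure D3:**
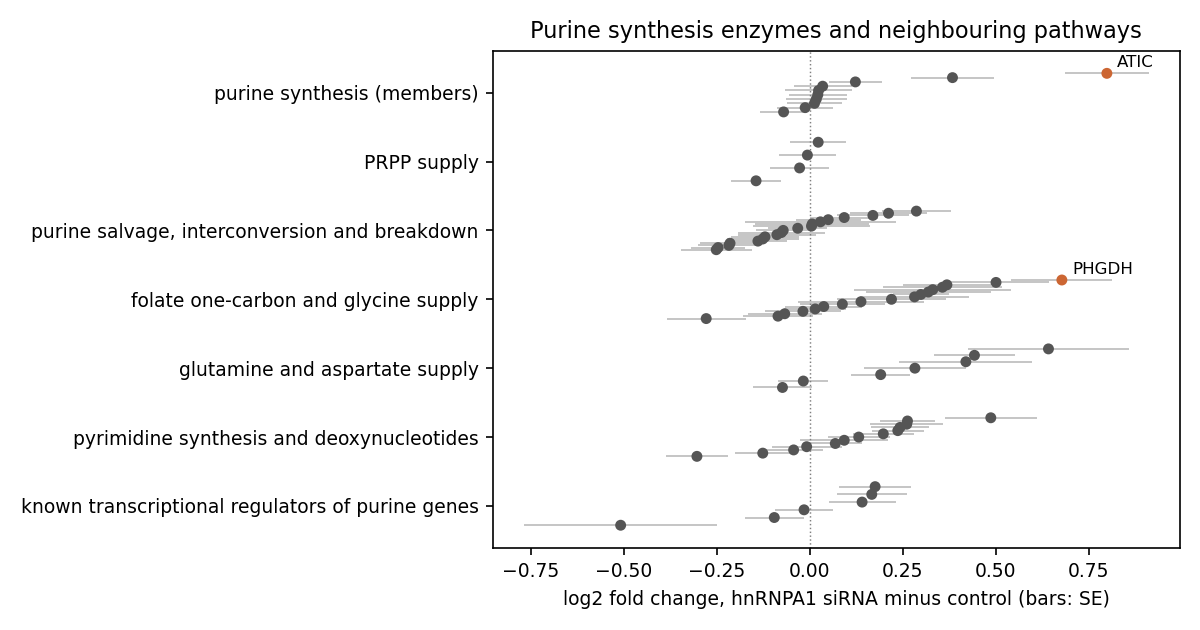
Log2 fold change of hnRNPA1 siRNA against control (horizontal axis, bars are SE) for each tested gene of the 10 enzymes and of the 6 neighbouring lists (rows), with genes called at a limma adjusted p under 0.05 in orange. ATIC at 0.80 stands apart from the other enzymes, most of which lie near 0, and PHGDH (0.68) is the called gene of the other lists.

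The RIP lists give, for each compartment, windows of 500 bases in which the authors' peak caller found signal with hnRNPA1; a window does not show direct binding. The deposited lists hold 16198 windows, 18 of them in 9 of the 10 enzymes, with no value per library, so their depth and replicate spread are unknown. The windows were not used to choose the enzymes, as far as the rule says. The lists name no genome build. Between 38.3% and 43.5% of windows start at a whole number of 500-base steps from the GRCh38.p14 start of their gene, and 93.8% to 96.4% lie in its span, so positions below were read against that build.

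In the whole-cell list 8 of 10 enzymes had a window, against 39.2% of the genes tested in the knockdown and 62.6% of those above the median expression, where all 10 lie. In the cytosolic list 2 of 10 had one (5.17% and 7.60% of genes), and in the mitochondrial list 0 of 10 (6.39% and 10.8%). ADSL had windows in both the whole-cell and the cytosolic list, PFAS only in the cytosolic one, and IMPDH2 in none. Overlap between lists could be asked of ADSL alone, and its cytosolic window did not overlap its whole-cell windows.

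ATIC had 1 whole-cell window (chr2:215311956-215312456, plus strand), which begins 103 bases before the RefSeq start and shares 153 bases with the promoter entry shown above. In the authors' deposited table its signal value was 0.83 with a q of 0.03099, which places it 11750th of 13007 windows, or 90.3% of the way down the list. Signal values reach down to 0.7 in all 3 lists, and their median in the whole-cell list was 1.22, and no source used here gives its scale. Of the 18 windows in the enzymes, 3 had a lower signal value.

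The highest window signal lay in ADSS2 (chr1:244451494-244451994, minus strand), at 2.04 with a q of 1.143e-12 in the authors' deposited table, within the first 7.6% of the whole-cell list. In GMPS 3 windows lay in the last part of the gene, at 95.8%, 97.2% and 98.5% of its span, with signal values of 1.01, 1.14 and 1.5. PAICS had 4 windows, 1 at the start beside PPAT, which lies at 47.1% of its RefSeq span, and 3 between 91.5% and 94.3% of its span, the strongest at 1.30 with a q of 2.637e-11. IMPDH1 had 1, at the end of the gene (1.38). GART had windows at its start (1.11) and at 48.0% of its span (0.93), and ADSL at its start (1.15) and at 44.5% (1.07).

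The PFAS window was the strongest of the enzymes in the cytosolic list (chr17:8256618-8257118, plus strand). Its signal value was 1.48 with a q of 0.0005088 in the authors' deposited table, within the first 25.1% of that list. The cytosolic window of ADSL had a signal value of 0.77 and a q of 0.04189 and lay at 39.6% of its span, and that of PFAS at 40.5%. The RefSeq span of ADSL shares 16934 bases with SGSM3. The positions of the ADSL windows, at 39.6% and 44.5%, therefore depend on where that gene is taken to end.

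**Figure D4:**
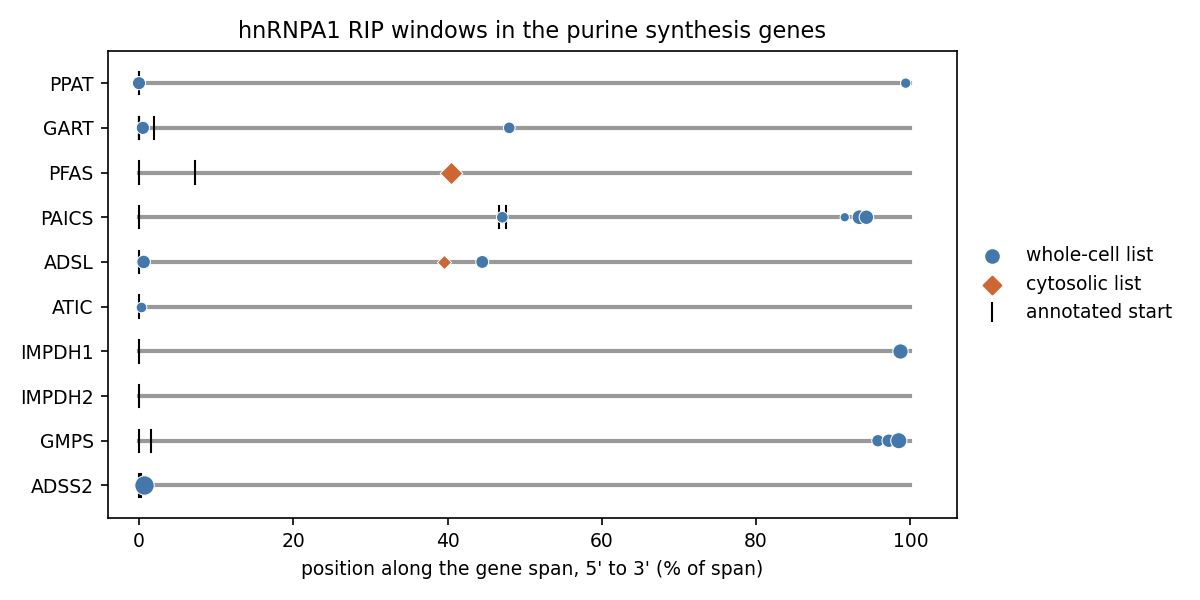
Midpoint of each RIP window (dots for the whole-cell list, diamonds for the cytosolic list, larger for a higher signal value) along the span of each enzyme gene in percent, from 5' to 3', with black ticks at starts annotated by RefSeq. In 6 genes a whole-cell window lies at a start, in GMPS and PAICS windows gather near the 3' end, and IMPDH2 has none.

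Position within the gene was set beside that of other genes. Of the 8 enzymes with a whole-cell window, 6 had one that covered a RefSeq start or lay within 500 bases of it (PPAT, GART, PAICS, ADSL, ATIC and ADSS2), against 39.7% of 6156 genes with a whole-cell window and a RefSeq span. By the same measure 2 of 8, PPAT and IMPDH1, had one at the end of the gene, against 29.2%. Of the 16 whole-cell windows 6 lay at a start, 2 at an end and 8 at neither. Over the 11755 whole-cell windows of genes with a RefSeq span, 23.3% lay at a start and 16.9% at an end. The start windows of PPAT (minus strand, signal 1.10) and PAICS (plus strand, 0.93) overlap by 121 bases on opposite strands, mostly past the PAICS start, and only the end of the stretch shown above falls in both. The starts lie 137 bases apart; the PPAT window spans both starts and the PAICS window only its own. Of the 6 enzymes with a start window, PPAT, GART, PAICS, ADSL and ADSS2 had knockdown values that overlapped those of the controls. ATIC, whose start window had the lowest signal of the 6, had values that did not, and its rise was part of how the group was chosen. PFAS, with no start window, also had values that did not overlap. Over all genes tested, knockdown values lay all above the control values in 5.69% and all below in 5.95%. Whether start windows go with the knockdown values was not tested.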

How the data were processed

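The authors deposited gene values of 8 siRNA libraries as a normalised signal (read counts divided by a factor per library, as taken from the values) and 1 peak list per RIP compartment, with a signal score, a p-value and a q-value per window. The submitters' processing notes name hg38, DESeq2, STAR 2.7.8a and Partek with no role; the deposited lists are titled CLAM peaks, after the peak caller CLAM, and no source used here gives its version, its background or how reads were assigned. Of the low values, 82.7% to 84.2% per library were whole multiples of 1 step (tolerance 0.02), too few for a count test; the step gave 16610500 to 22057800 estimated reads per library.

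The 15267 genes that reached 10 in 4 or more libraries were tested on log2(value + 1) with limma 3.58.1 (R 4.3.3, variance trend, no block), with Benjamini-Hochberg adjustment over all of them. Fold changes on that scale understate those of low genes. Gene IDs were matched to symbols for 16358 of 16382 genes. The enzymes, lists and most tests were chosen with earlier results of these data known. Named genes are the 10 enzymes, HNRNPA1, called genes and the 2 with the smallest p of each list, and the genes nearest to ATIC; some genes that the rule or the lists would take are not reported here, and were left out of the list counts but not of the fit. Motifs were searched on both strands; CACGTG is its own reverse complement. Figures were drawn with matplotlib 3.10.9.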

Additional observations from a re-analysis of the deposited data

Results flagged for a closer look

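In 3 of the 46 groups of 4 libraries looked at (the enzymes, HNRNPA1 and the named genes of the other lists), 1 library stood apart from the other 3 by Dixon's ratio; chance flags about 1 group in 20. Among the enzymes this was ADSL in knockdown library 2, at 2286.5 normalised reads, with the other knockdown libraries at 2012.8 or lower. NT5C2 was low in control library 2, at 780.2, and CMPK1 high in control library 1, at 2007.5.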

How the results depend on the processing

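For the 10 enzymes, all 150 log2 fold changes under alternatives stayed within 1 SD between libraries of the value reported. Most settings could not have passed that limit. Leaving out libraries shifts a group mean by less than 1 SD, and the block, filter and trend settings leave the fold change as it is. The count therefore does not measure how robust the values are. For ATIC a stable rise was part of the choice. The count of called enzymes was 1 with any library left out and 2 with the replicate block, with PFAS added. With the block, 1191 genes (605 higher, 586 lower) were called over the whole table, or 7.8% of those tested. Of the 66 tested genes of the neighbouring lists, 12 were called with the block (10 higher, 2 lower), against 1 (PHGDH) without it. Among the 12 were PHGDH (limma adjusted p = 0.0036 with the block), NT5C2 (0.038), APRT (0.019), MTHFD1 (0.029), SLC1A5 (0.01), CAD (0.0045) and CMPK1 (0.021). Same-numbered libraries deviated together in pairs 1, 2 and 4 (correlation over genes 0.119, 0.292 and 0.234) but not in pair 3 (0.043), so the numbers were not taken as pairs. Control libraries 1, 2 and 4 correlated best with the knockdown library of the same number, and control library 3 with knockdown library 4. Knockdown libraries 1 and 2 correlated best with the control library of the same number, 3 with control library 1 and 4 with control library 3. Genes called over the whole table were 90 with equal totals outside the mitochondrial chromosome, 48 without a variance trend, 48 at an adjusted p under 0.01, 94 without knockdown libraries 3 and 4 together (chosen after seeing the data), and 61 to 254 with 1 library left out. Those of the neighbouring lists were 0 in each of the first 4 of these settings and 0 to 5 with 1 library left out. The log2 fold change of PRPSAP1 turned from -0.03 to 0.02 without control library 1 and ran from -0.07 to 0.02 with 1 library left out. For windows above the median signal, 4 enzymes were left in the whole-cell list (ADSS2, GMPS, IMPDH1 and PAICS) and 1 in the cytosolic list (PFAS). At a q of at most 0.005 the whole-cell list kept 6 of 8, without ATIC and GART, and the cytosolic list 1 (PFAS). The cause of these changes was not tested.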
